A study of Mus musculus with 13 samples.

Results

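Livers sampled after 6 weeks of TAA were set against livers sampled after 4 weeks, to ask which expression responses were still moving and which had held their level. The comparison used 7 of the 13 arrays of the series, 6-week arrays A to C against 4-week arrays A to D, and covered 8027 of the 16590 genes named on the array, those with a detection p under 0.01 on at least 3 of the 13 arrays. Both groups were total liver of female C57BL/6 mice. They differed, as far as the labels say, only in the weeks of TAA, which usually stands for thioacetamide, a liver toxin. The series also holds 3 naive livers and 3 livers taken after 1 week of TAA, which were used as reference points, and its title places it in work on liver fibrosis. No dose, route or dosing scheme is given, and whether each sample came from its own animal is not stated, so p-values measure only the spread between these samples.

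Thioacetamide is turned into reactive metabolites mainly by CYP2E1 in the hepatocytes around the central veins, and repeated dosing leads from necrosis to bridging scar. In the scar, stellate cells become contractile myofibroblasts that secrete collagens, macrophages take up debris and remodel matrix, and duct-like cells expand from the portal tracts. Surviving hepatocytes switch on antioxidant and conjugation genes under the transcription factor NRF2 and damage genes under p53, while many of their specialised metabolic genes fall. In bulk liver RNA, fewer cells of a type and less RNA per cell cannot be told apart.

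The 2 groups differed in brightness. Mean raw intensity ran from 456 to 611 on the 4-week arrays and from 195 to 273 on the 6-week arrays. The upper decile of signal stood at 6.84 to 8.42 times background at 4 weeks and at 2.89 to 5.09 times at 6 weeks, and 10259 to 10980 against 9675 to 10269 probes were detected. Normalised log2 intensities correlated with r from 0.981 to 0.99 within the 4-week group, from 0.976 to 0.98 within the 6-week group and from 0.957 to 0.98 between them, across genes, which are not replicates. The arrays also fell into 2 sets. On the 6-week arrays and 1-week arrays B and C, 7 genes (Erich5, Zxda, Pisd-ps2, Ifngr2, Prf1, Rhbdl2 and Gm7609) read at least 1 log2 unit higher than on every other array, and 0 genes read at least 1 unit lower. With a gap of any size between the sets, 130 of the 8027 genes read higher on these arrays and 161 lower. Whether brightness had a part in the results was not tested. No set holds both 4-week and 6-week arrays, so no value within a set can be given, and week and array set can be told apart only through the 3 arrays of 1 week. The set-adjusted change used below is the difference of the 6-week arrays from 1-week arrays B and C minus the difference of the 4-week arrays from 1-week array A.

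Of the 8027 genes, 426 (5.31%) differed between 6 and 4 weeks at an adjusted p under 0.05. The split was 178 higher at 6 weeks (2.22%) and 248 lower (3.09%), and 49 of the rises and 125 of the falls reached 2-fold. Under scaling of each array to its 75th percentile in place of quantile normalisation, 468 genes were higher and 350 lower. The 95% confidence interval of the change lay wholly within 1 log2 unit either way for 6447 genes (80.3%), of which 6411 were not called. Another 1190 genes were neither called nor bounded in this way. The median change over all genes was 0.05 on the log2 scale, also with undetected genes at their bound, and the median set-adjusted change 0.04. A change above 0 was found for 4506 genes (56.1%) and one below 0 for 3521 (43.9%). The share of bounded genes was 80.7% in the lowest decile of mean level, where only 9 of 803 genes were detected on all 7 arrays. From the second decile on it rose with level, from 69.7% to 91.8% in the highest decile. By the same model 28.2% of genes differed from naive at 4 weeks and 38.8% at 6 weeks, comparisons that share these arrays. With 1 probe per gene, the lists of collagens, of elastic fibre, proteoglycan and matricellular genes and of stellate cell markers held 0 called genes. Of their tested genes 66.7%, 60% and 60% were bounded, below the 80.3% over all genes. The shares over all genes, 2.22% higher, 3.09% lower and 80.3% bounded, are the background for every list count below. The largest falls were Cyp2b13 and Cyp2b10, drug-metabolising P450 enzymes, followed by Gnas, A1bg, Car3 and Asl.

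How many genes were called depended on single arrays. The count was 293, 237, 220 and 145 without 4-week arrays A, B, C and D in turn, and 106, 497 and 141 without 6-week arrays A, B and C. A core of 85 genes, 17 higher and 68 lower, was called in all 7 of these fits, and where a call below was lost in some of them this is said. Every array of one group lay outside the range of the other for 425 of the 426 called genes. That measure has a high background: 1127 of all genes (14%) were higher and 846 (10.5%) lower with no overlap. Among the genes called, 33 of the falls were detected on no 6-week array and 8 of the rises on no 4-week array. The 2 array sets did not overlap, in the direction of the call, for 42 of the 178 rises and 100 of the 248 falls. Over all genes this held for 130 upward and 161 downward. In the set-adjusted fit limma called 0 genes, with 800 at an unadjusted p under 0.05 against 1753 in the unadjusted comparison. The set-adjusted change contains the plain one, so a shared sign is largely built in for genes called on a large plain change. Signs were shared for 177 of 178 rises and 245 of 248 falls, beside 5326 of all 8027 genes. The median SE over all genes was 0.375 in the set-adjusted fit, in place of 0.208.

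All counts of genes here rest on 1 probe per gene, the brightest, and other probes of the same gene often read differently. Past the same filter, 1935 genes had 2532 further probes. With p-values adjusted over all probes, 52 of these (2.05%) were called higher and 456 (18%) lower, where the tested probes gave 3.3% and 3.76% in the same fit. Their median change was -0.14, beside 0.04 for the tested probes of the same genes, and they were dimmer, with a median level of 6.44 against 8.18. Of the genes not called on the tested probe, 338 had a further probe called lower, 305 of them bounded on the tested probe, and 32 had one called higher. A bounded change below therefore holds for the probe tested. The median set-adjusted change of the further probes was -0.11. Whether dimness or array set had a part in this was not tested.

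**Figure D1:**
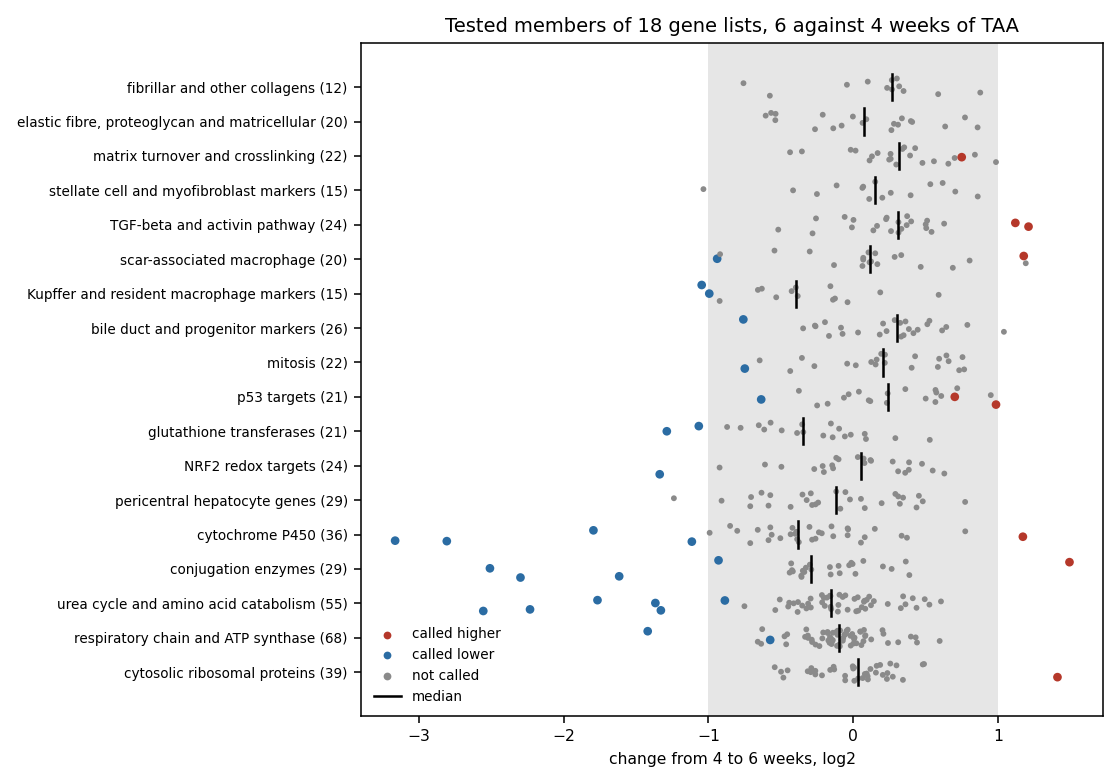
Change from 4 to 6 weeks of TAA, in log2 units, of every tested member of 18 gene lists (1 dot per gene, number of tested members in brackets, black bar at the list's median, grey band from -1 to 1). Red and blue dots are genes called higher and lower. Collagen and stellate cell lists hold 0 called genes, while blue dots reach -3.16 in the cytochrome P450 list.

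Collagens stood above naive at both times and none was called between them. Of 12 tested collagens, 0 rose and 0 fell between 4 and 6 weeks, where 5.31% of all genes were called. An interval within 1 log2 unit was found for 8 collagens (66.7%), beside 80.3% of all genes. Their median change was 0.27, beside 0.05 over all genes, and their median set-adjusted change 0.25, beside 0.04. The same genes stood at a median of 0.83 above naive at 4 weeks and 1.19 at 6 weeks. Col1a1, a chain of the main fibrillar collagen of scar, read 7.41, 7.53, 6.31 and 6.64 on 4-week arrays A to D and 6.54, 6.26 and 6.39 on 6-week arrays A to C. 6-week arrays A and C lay inside the 4-week range and array B just under it, and the change was -0.58 ± 0.28 (adjusted p = 0.253). Col3a1, the collagen laid down early in scar, read 7.63, 6.50, 6.09 and 6.15 at 4 weeks and 7.82, 7.25 and 7.34 at 6 weeks, with a change of 0.88 ± 0.33 (adjusted p = 0.137). Here 4-week array A lay within the 6-week range and arrays B, C and D below it. For Col1a2, the partner chain of Col1a1, the change was 0.59 ± 0.28 (adjusted p = 0.239), and the basement membrane chains Col4a1 and Col4a2 gave 0.35 ± 0.27 (adjusted p = 0.473) and 0.27 ± 0.27 (adjusted p = 0.598). In single leave-one-out fits at most 1 collagen was called.

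Among 20 tested elastic fibre, proteoglycan and matricellular genes 12 (60%) were bounded within 1 log2 unit, beside 80.3% over all genes. Of these 20 genes 0 were called, and their median change was 0.08, and 0.30 after set adjustment. Of their 7 further probes 3 were called lower and 0 higher: Sparc, a collagen-binding matricellular protein, at -1.66 ± 0.48 (adjusted p = 0.0378), Ecm1 at -0.78 ± 0.22 (adjusted p = 0.0338) and Ccn1 at -0.77 ± 0.18 (adjusted p = 0.0129). On the tested probes these genes changed by -0.54, -0.57 and 0.34, and the set-adjusted changes of the further probes were -0.08, -0.39 and -0.92. Over all further probes of the array 18% were called lower. Among 15 stellate cell and myofibroblast markers 0 were called and 9 (60%) were bounded, with a median of 0.15 and a set-adjusted median of 0.56. Acta2, the smooth muscle actin of myofibroblasts, read 10.17, 9.23, 8.21 and 8.46 at 4 weeks and 8.11, 9.48 and 9.80 at 6 weeks. Overlap between the groups was wide, with 6-week array A the lowest of the 7, and the change was 0.11 ± 0.47 (adjusted p = 0.928), with an interval from -0.90 to 1.13 that does not bound it within 1 unit. Its set-adjusted change was 1.34 ± 0.85 and was not called. Its 3 dimmer probes disagreed. At mean levels of 4.87, 5.11 and 5.56 they gave -0.77 ± 0.21, -0.41 ± 0.32 and 0.27 ± 0.35 (adjusted p = 0.0273, 0.455 and 0.688), so that 1 of the 3 was called lower. Elastin (Eln) read 8.15, 7.50, 5.92 and 6.38 and then 7.22, 6.78 and 7.76, a change of 0.26 ± 0.43 (adjusted p = 0.775). For Timp1, an inhibitor of matrix metalloproteases, values of 7.34, 6.54, 6.10 and 5.85 were followed by 6.87, 7.12 and 6.28, and the interval of its change ran from -0.32 to 0.91. The crosslinking enzyme Lox, at 6.58, 6.28, 5.37 and 5.75 and 6.35, 6.14 and 6.68, had an interval from -0.13 to 0.92. Nid1, a basement membrane linker that stood 2.27 above naive at 4 weeks, stood 2.27 above it at 6 weeks. Pdgfra, the growth factor receptor of fibroblasts, missed the threshold at 0.86 ± 0.26 (adjusted p = 0.0729).

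Of 22 tested genes of matrix turnover and crosslinking, 1 was called, 13 were bounded and 19 had a change above 0, with a median of 0.32 and a set-adjusted median of 0.63. Over all genes 5.31% were called, 80.3% were bounded and 56.1% had a change above 0. The gelatinase Mmp2 read 9.94, 9.26, 7.43 and 7.82 at 4 weeks and 9.44, 9.34 and 10.03 at 6 weeks. These overlapped with 4-week arrays A and B, while C and D were lower, and the change of 0.99 ± 0.49 (adjusted p = 0.259) was not called. Macrophage metalloelastase, Mmp12, stood 3.58 above naive at 1 week, 1.76 at 4 weeks and 1.87 at 6 weeks. Adam9, a membrane-bound protease, was the called member, at 0.75 ± 0.19 (adjusted p = 0.0372). Its 4-week values, 6.98, 6.72, 6.46 and 6.75, lay below naive and its 6-week values, 7.86, 7.19 and 7.38, near it. The call of Adam9 was kept only without 4-week array A or without 6-week array B (adjusted p up to 0.182 in the other fits).

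**Figure D2:**
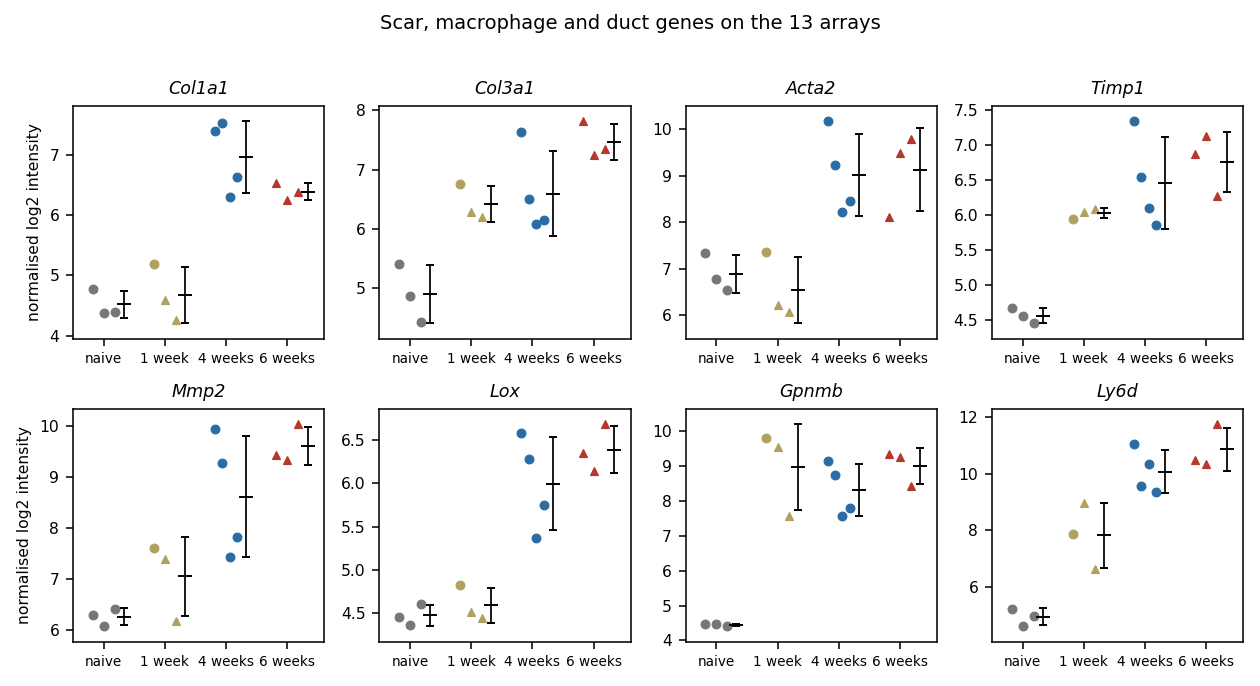
Normalised log2 intensity on each of the 13 arrays for 8 scar, macrophage and duct genes in naive liver and after 1, 4 and 6 weeks of TAA. Circles and triangles are the first and second array set, and black bars give the mean and SD. The 4-week and 6-week values overlap in every panel.

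In the TGF-beta and activin pathway, which drives stellate cells towards collagen synthesis, 2 of 24 tested genes rose, 0 fell and 17 were bounded within 1 log2 unit. The median change was 0.31, and 0.39 after set adjustment. Among the ligands, Inhba, the activin A subunit, read 6.25, 6.35, 5.6 and 6.31 at 4 weeks and 7.65, 7.15 and 6.96 at 6 weeks. It rose by 1.12 ± 0.27 (adjusted p = 0.0298) from a level -1.11 relative to naive to one of 0.01. Tgfbi, a matrix protein induced by TGF-beta, changed by -0.06 on its tested probe and by -0.97 ± 0.24 (adjusted p = 0.0201) on its further probe, whose set-adjusted change was 0.16. Tgfb1, the main fibrogenic ligand, changed by -0.28 ± 0.25 (adjusted p = 0.539). Of the receptors, Tgfbr2 was bounded from -0.32 to 0.60 and Tgfbr1 from -0.18 to 0.71. Smad3, the signal transducer that binds collagen gene promoters, read 6.71, 6.52, 6.59 and 6.11 and then 8.0, 6.89 and 8.19. Every 6-week array was above every 4-week array, and Smad3 rose by 1.21 ± 0.29 (adjusted p = 0.0284). The related Smad2 and Smad4 were bounded from -0.34 to 0.32 and from -0.16 to 0.50. The target Id1 stood 1.85 above naive at 4 weeks and 1.85 at 6 weeks. Smad3 kept its call only without 4-week array A or without 6-week array B, and Inhba only without 4-week array B or without 6-week array B, with adjusted p up to 0.138 and 0.15 in the other fits. The set-adjusted change was 0.37 for Smad3 and 0.77 for Inhba.

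Of 20 genes of scar-associated macrophages, 1 rose, 1 fell and 12 were bounded, with a median of 0.12 and a set-adjusted median of 0.53. Ctsk, a collagen-degrading cathepsin, read 7.10, 6.37, 5.51 and 5.77 at 4 weeks and 7.22, 7.36 and 7.52 at 6 weeks, and rose by 1.18 ± 0.32 (adjusted p = 0.0479). Lgmn, a lysosomal protease, read 9.55, 9.44, 9.84 and 9.61 and then 8.74, 8.78 and 8.50, a change of -0.94 ± 0.19 (adjusted p = 0.0132) that brought it from 0.81 to -0.13 relative to naive. Gpnmb, a glycoprotein of lipid-laden macrophages, read 9.15, 8.73, 7.56 and 7.80 and 9.33, 9.24 and 8.42, 3.86 and 4.55 above naive. Its change of 0.69 ± 0.47 (adjusted p = 0.416) was neither called nor bounded, and the same held for the lipid receptor Trem2 at 0.47 ± 0.40 (adjusted p = 0.527). Their set-adjusted changes were 1.92 and 1.74, neither called. The tetraspanin Cd63 was 4.91 above naive at 4 weeks and 4.78 at 6 weeks, with an interval from -0.73 to 0.46. Ctsk kept its call only without 4-week array A, with adjusted p up to 0.15 otherwise, and Lgmn lost its call without 6-week array A or C, at up to 0.0693.

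Markers of Kupffer cells, the resident macrophages of the sinusoids, were lower at 6 weeks for 13 of 15 tested genes, with 2 called falls, 8 bounded and a median of -0.40. Over all genes 43.9% were lower. With undetected genes at their bound the median was -0.16. Fcna, a lectin of the complement system, read 9.64, 9.71, 10.72 and 10.18 at 4 weeks and 8.95, 9.26 and 8.84 at 6 weeks and changed by -1.05 ± 0.24 (adjusted p = 0.0243). The folate receptor Folr2 read 6.56, 6.82, 7.63 and 7.21 and 6.00, 6.24 and 5.94, a change of -0.99 ± 0.24 (adjusted p = 0.0301). For both, the highest 6-week array was below the lowest 4-week array. The sinusoidal lectin receptor Clec4f, at 9.14, 9.17, 9.71 and 9.42 and 7.99, 8.91 and 8.41, missed the threshold with -0.92 ± 0.29 (adjusted p = 0.0804). Adgre1, which encodes the F4/80 antigen, changed by -0.04 ± 0.33 (adjusted p = 0.966). Over the 5 tested of 6 defining markers (Adgre1, Clec4f, Timd4, Marco and Vsig4) the mean level was 7.60 to 8.41 at 4 weeks and 6.85 to 8.09 at 6 weeks. Fcna and Folr2 both lost their call without any one of 4-week arrays C and D and 6-week arrays A and C, with adjusted p up to 0.103 and 0.119. The median set-adjusted change of the list was 0.01.

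Of 9 tested genes of MHC class II and antigen presentation, 5 neutrophil and monocyte markers and 23 chemokines and cytokines, 0 were called. The share bounded was 55.6%, 40% and 52.2% in this order, beside 80.3% over all genes. Median changes of the lists were 0.217, 0.495 and 0.0505, and their set-adjusted medians 1.297, 0.74 and 0.268. The absence of calls therefore does not show that these lists held their level. Of the 3 further probes of chemokine and cytokine genes 2, of 1 gene, were called lower and 0 higher. Over all further probes 18% were called lower. Among 33 interferon-stimulated genes 1 rose, 0 fell and 25 were bounded. The riser was Irgm1, an interferon-induced GTPase, at 12.73, 12.54, 12.54 and 12.23 and then 13.25, 13.22 and 13.40, a change of 0.78 ± 0.21 (adjusted p = 0.041). Another Irgm1 probe gave -0.22 ± 0.26, and the call was lost whichever array was left out. Of 10 tested T, NK and B cell markers only Prf1, one of the 7 genes that divide the array sets, was called. Among 29 endothelial markers Pecam1, the junction protein CD31, was the 1 called, at 7.24, 6.90, 7.04 and 6.73 and 5.44, 6.24 and 6.33 with a change of -0.98 ± 0.26 (adjusted p = 0.043). Its other probe gave 0.35 ± 0.22, its set-adjusted change was -0.05, and it kept its call only without 6-week array B. The endothelial list had a median of -0.21, a set-adjusted median of 0.28 and 21 bounded genes, and its 4 tested defining markers had a mean level of 8.13 to 8.30 at 4 weeks and 7.37 to 8.12 at 6 weeks. Whether cell numbers differed was not tested.

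Of 26 tested bile duct and progenitor markers 0 rose, 1 fell and 16 were bounded, with a median of 0.31 and a set-adjusted median of 0.14. Ly6d, a surface marker of injury-induced hepatobiliary cells in mice, read 11.04, 9.58, 10.35 and 9.35 at 4 weeks and 10.50, 10.36 and 11.75 at 6 weeks. It stood 5.13 and 5.92 above naive, and the change of 0.79 ± 0.50 (adjusted p = 0.37) was not called. Cldn4, a tight junction protein of ducts, was high on 4-week arrays A and C and low on B and D (8.25, 6.37, 8.45 and 6.67), and read 8.71, 8.33 and 8.39 at 6 weeks. Its change was 1.04 ± 0.46 (adjusted p = 0.202). The progenitor factor Sox9 changed by 0.42 ± 0.32 (adjusted p = 0.472) and the TWEAK receptor Tnfrsf12a by 0.36 ± 0.31 (adjusted p = 0.52). The desmosomal cadherin Dsg2 was the called fall, at -0.76 ± 0.20 (adjusted p = 0.0386), and lost its call whichever array was left out. Among 16 oncofetal genes 0 were called. The fetal albumin Afp was 1.76 and 2.07 above naive, and the growth factor Igf2 read 6.36, 5.62, 5.19 and 5.61 at 4 weeks but 5.33, 7.01 and 8.89 at 6 weeks, where 2 of 3 arrays detected it and array C was the highest of all 7.

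Gsta1, a glutathione transferase induced by NRF2, read 12.63, 12.10, 13.38 and 12.82 at 4 weeks and 13.28, 13.42 and 13.09 at 6 weeks, 7.54 and 8.07 above naive, where the 3 arrays read 6.72, 4.42 and 4.45. Its change of 0.53 ± 0.45 (adjusted p = 0.519) was not called, and the closely similar Gsta2 could share its signal. Nqo1, the quinone reductase that is a classic NRF2 target, went the other way. It read 7.63, 7.22, 7.87 and 7.62 at 4 weeks and 6.00, 6.51 and 6.23 at 6 weeks, against 6.04, 5.84 and 5.83 in naive liver. All 6-week arrays lay below all 4-week arrays, and Nqo1 fell by 1.34 ± 0.19 (adjusted p = 0.00178), from 1.68 to 0.34 relative to naive. The call held in all 7 leave-one-out fits, and the set-adjusted change was -1.15. Nqo1 was the 1 called among 24 tested NRF2 redox targets, with 18 bounded, a median of 0.05 and a set-adjusted median of -0.18. The carbonyl reductase Cbr3, at 10.69, 10.27, 11.51 and 10.47 and 8.97, 9.17 and 11.30, changed by -0.92 ± 0.47 (adjusted p = 0.267) and was neither called nor bounded.

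Of 21 glutathione transferases 0 rose, 2 fell and 12 were bounded, and 17 had a change below 0, with a median of -0.34, of -0.21 with undetected genes at their bound and of -0.50 after set adjustment. Over all genes 2.22% rose, 3.09% fell, 80.3% were bounded and 43.9% had a change below 0. Gsto1, the omega-class enzyme, read 10.81, 10.96, 10.74 and 11.03 and then 9.58, 9.98 and 9.90, a change of -1.07 ± 0.16 (adjusted p = 0.00199) that held in all 7 fits. Gstm6, of the mu class, read 10.53, 9.97, 10.68 and 10.55 and 8.86, 9.42 and 9.15 and changed by -1.29 ± 0.26 (adjusted p = 0.0117). A further Gstm6 probe gave -0.98 ± 0.28. Without 6-week array A its adjusted p was 0.074. Gstp1, the pi-class enzyme that rises in injured hepatocytes, was 1.80 above naive at 4 weeks and 1.03 at 6 weeks, and its change of -0.78 ± 0.22 (adjusted p = 0.0534) missed the threshold. Among 22 aldo-keto reductases and aldehyde dehydrogenases 3 fell and 17 were bounded. Akr1c12 read 11.31, 11.39, 11.87 and 11.53 at 4 weeks and 9.42, 10.19 and 9.59 at 6 weeks, moving from 0.90 above naive to -0.89. Its change was -1.79 ± 0.27 (adjusted p = 0.00222), and its close relatives in the Akr1c cluster could share signal with the probe. Aldh8a1, an aldehyde dehydrogenase, changed by -1.03 ± 0.17 (adjusted p = 0.00326), in all 7 fits as well. The folate enzyme Aldh1l1 changed by -0.93 ± 0.23 (adjusted p = 0.0331) and lost its call without 4-week array C or D or 6-week array A or C (adjusted p up to 0.153).

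Cytochrome P450 genes held the largest fall of the comparison. Of 36 tested P450 genes 1 rose, 4 fell and 21 were bounded, and 29 had a change below 0, with a median of -0.38, of -0.34 at the bounds and of -0.33 after set adjustment. Over all genes 2.22% rose, 3.09% fell, 80.3% were bounded and 43.9% had a change below 0. The same genes stood at a median of -0.61 relative to naive at 4 weeks and of -1.05 at 6 weeks. Cyp2b10, Cyp2b13 and Cyp2b9 belong to a cluster on chromosome 7, the Cyp2b family being known for induction by phenobarbital through the nuclear receptor CAR. Their promoters are shown because the genes fell together. Each is the 300-base RefSeq window around the gene start (GRCm38.p6, plus strand), at chr7:25897408-25897707, chr7:26061245-26061544 and chr7:26173159-26173458. Capitals mark AGGTCA, the half-site bound by many nuclear receptors, searched on both strands.
Cyp2b10: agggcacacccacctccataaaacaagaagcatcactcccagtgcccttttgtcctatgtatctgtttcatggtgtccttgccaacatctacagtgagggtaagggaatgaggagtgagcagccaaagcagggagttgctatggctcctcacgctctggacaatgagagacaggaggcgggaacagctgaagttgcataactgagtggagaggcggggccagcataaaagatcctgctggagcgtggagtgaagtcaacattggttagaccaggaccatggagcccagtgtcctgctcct
Cyp2b13: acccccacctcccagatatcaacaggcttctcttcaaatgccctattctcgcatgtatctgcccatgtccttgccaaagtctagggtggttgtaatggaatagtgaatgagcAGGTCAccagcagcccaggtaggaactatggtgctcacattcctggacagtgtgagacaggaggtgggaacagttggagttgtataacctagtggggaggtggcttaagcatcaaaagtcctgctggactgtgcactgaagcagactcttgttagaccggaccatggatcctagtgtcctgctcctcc
Cyp2b9: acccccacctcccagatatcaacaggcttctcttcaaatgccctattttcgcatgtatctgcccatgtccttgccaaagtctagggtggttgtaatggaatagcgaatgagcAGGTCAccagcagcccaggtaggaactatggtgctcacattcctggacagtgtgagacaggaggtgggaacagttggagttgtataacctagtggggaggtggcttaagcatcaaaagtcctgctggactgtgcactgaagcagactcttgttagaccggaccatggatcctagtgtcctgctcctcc
The letters AGGTCA stand in the windows of Cyp2b13 and Cyp2b9 and not in that of Cyp2b10, and in 5340 of the 32851 promoters of the same length (16.3%). TATAAA, also searched on both strands, is in none of the 3 windows and in 4473 of all promoters (13.6%). The windows of Cyp2b13 and Cyp2b9 differ by 2 single-base edits, and each differs from that of Cyp2b10 by 84. Genes this alike could also share signal on an array probe, so their values are not fully separate.

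Cyp2b13 read 7.71, 10.44, 9.76 and 10.50 at 4 weeks and 6.23, 7.25 and 5.83 at 6 weeks, against 12.31, 12.15 and 11.68 in naive liver. Every 6-week array was below every 4-week array, as the rule for the largest falls required, with 4-week array A the lowest of its group. The change was -3.16 ± 0.60 (adjusted p = 0.00894), an 8.96-fold fall, and relative to naive it moved from -2.45 to -5.61. Cyp2b10 read 7.83, 8.48, 9.22 and 9.73 and then 5.94, 5.67 and 6.41. At 4 weeks it was near naive (-0.45) and at 6 weeks it was -3.26 relative to it, a change of -2.81 ± 0.40 (adjusted p = 0.00178) between these times. Cyp2b9 read 10.13, 11.23, 10.85 and 11.63 and 9.93, 9.73 and 9.89, a change of -1.11 ± 0.29 (adjusted p = 0.0406). The set-adjusted changes of the 3 genes, -3.92, -3.04 and -1.90 for Cyp2b13, Cyp2b10 and Cyp2b9, were larger than the plain ones and none passed the test (adjusted p from 0.328 to 0.345). Cyp2b10 was called in all 7 leave-one-out fits. Cyp2b13 lost its call without 6-week array A or C, at an adjusted p of up to 0.0529. Cyp2b9 kept its call only without 4-week array A.

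The remaining P450 genes named by the rule went both ways. Cyp4a31, a fatty acid hydroxylase whose close relatives could share its signal, read 8.63, 9.63, 9.11 and 9.25 and 7.34, 7.05 and 7.69 and changed by -1.79 ± 0.38 (adjusted p = 0.0158). Without 4-week array D or 6-week array A its adjusted p was up to 0.0722. Cyp2d9, which in mice is more abundant in male than in female liver, rose by 1.17 ± 0.31 (adjusted p = 0.0391), from 10.23, 9.48, 10.27 and 9.02 to 10.59, 11.31 and 10.87. It kept its call only without 4-week array A or C, with adjusted p up to 0.116 otherwise. Cyp3a11, a broad drug-metabolising enzyme, read 13.49, 13.65, 13.86 and 13.80 and then 12.54, 12.78 and 12.82 with no overlap, and its change of -0.99 ± 0.28 (adjusted p = 0.0574) missed the threshold. Cyp2e1, the enzyme that activates thioacetamide, was -0.83 relative to naive at 4 weeks and -1.26 at 6 weeks, with an interval from -0.83 to -0.04. Cyp1a2 changed by -0.71 ± 0.28 (adjusted p = 0.148).

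Conjugation enzymes, which attach sugar, sulfate or acetyl groups to drugs and metabolites, held 1 rise and 4 falls among 29 tested, with 19 bounded and a median of -0.29. The median was -0.16 with undetected genes at their bound, and the set-adjusted median was 0.12. Over all genes 2.22% rose, 3.09% fell and 80.3% were bounded. Ces1b, a carboxylesterase, which splits esters and conjugates nothing, read 11.25, 11.58, 10.92 and 11.88 at 4 weeks and 9.36, 9.05 and 8.29 at 6 weeks, a change of -2.51 ± 0.36 (adjusted p = 0.00178). Ugt1a2, a glucuronosyltransferase, read 6.82, 6.80, 6.61 and 7.72 at 4 weeks and was detected on no 6-week array, so that it was at least 3.39-fold lower at 6 weeks (adjusted p = 0.00178). Ugt1a10 read 11.56, 12.02, 11.92 and 12.43 and 10.33, 10.28 and 10.49, a change of -1.62 ± 0.21 (adjusted p = 0.00127), and the Ugt1a genes share their last exons. These 3 calls held in all 7 fits. Papss2, which makes the sulfate donor, changed by -0.93 ± 0.24 (adjusted p = 0.0352) and kept its call only without 4-week array A or 6-week array B. Nat8, an acetyltransferase of cysteine conjugates, was the rise. It read 4.79, 5.12 and 4.43 in naive liver, 7.30, 6.39, 6.15 and 5.83 at 4 weeks and 8.04, 8.14 and 7.56 at 6 weeks, and the last step was 1.5 ± 0.31 (adjusted p = 0.0137). Nat8 lost its call without 4-week array D or 6-week array A (adjusted p up to 0.0734), and its set-adjusted change was 1.47.

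**Figure D3:**
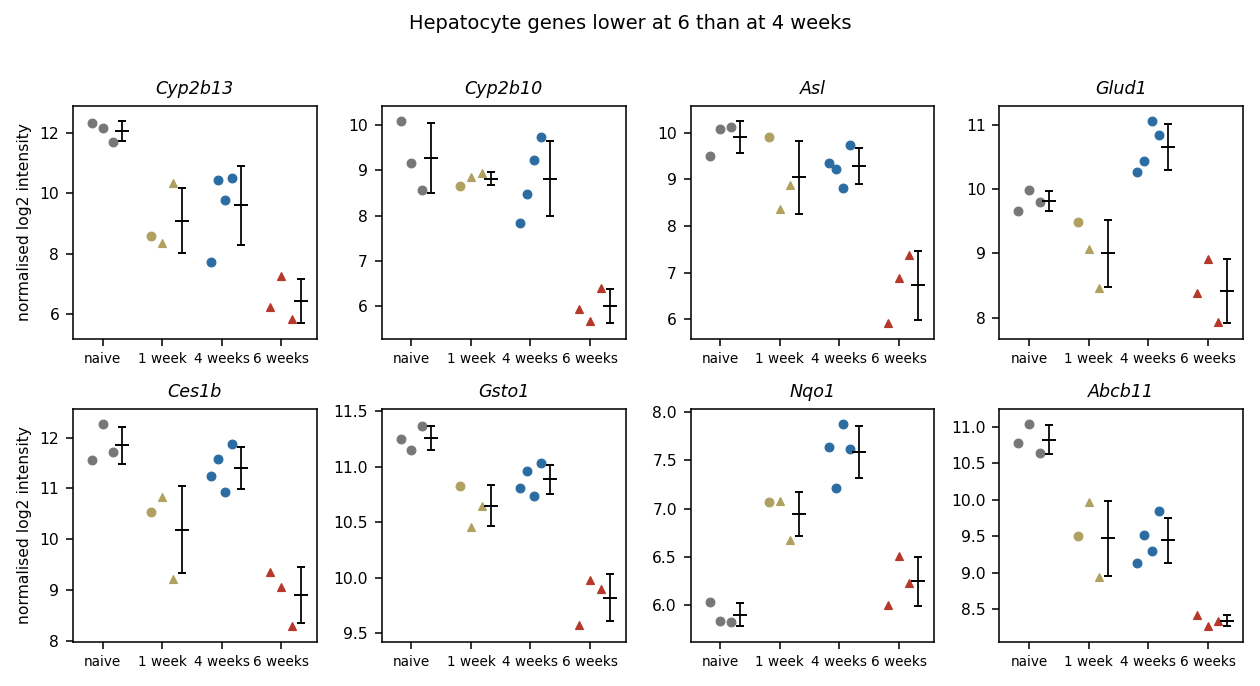
Normalised log2 intensity on each of the 13 arrays for 8 genes lower at 6 than at 4 weeks of TAA. Circles and triangles are the first and second array set, and black bars give the mean and SD. The 3 arrays of 6 weeks lie below all 4 arrays of 4 weeks in every panel, and the 6-week mean of Nqo1 stands 0.34 above naive while that of Cyp2b13 stands at -5.61.

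Amino acid catabolism and the urea cycle, through which the liver disposes of ammonia, gave 6 falls and 0 rises among 55 tested genes, with 44 bounded. Over all genes 3.09% fell, 2.22% rose and 80.3% were bounded. The list had a median of -0.15, and of -0.28 after set adjustment. Of the 21 further probes of the listed genes 14 were called lower and 0 higher, beside 18% and 2.05% of all further probes. Argininosuccinate lyase (Asl), which releases arginine in the urea cycle, read 9.35, 9.23, 8.82 and 9.75 at 4 weeks and 5.92, 6.89 and 7.38 at 6 weeks. It fell by 2.56 ± 0.37 (adjusted p = 0.00178), and a further probe gave -2.45 ± 0.38. Glutamate dehydrogenase (Glud1), which frees ammonia from glutamate, read 10.27, 10.43, 11.05 and 10.83 and then 8.38, 8.92 and 7.93. It was 0.83 above naive at 4 weeks and -1.40 at 6 weeks, a change of -2.23 ± 0.27 (adjusted p = 0.00121), and its further probe gave -1.26 ± 0.32. Nags, whose product activates the first enzyme of the cycle, was detected on all 4-week arrays and on no 6-week array, at least 1.79-fold lower (adjusted p = 0.0269). That first enzyme, Cps1, was bounded from -0.73 to -0.04 and not called. Shmt1, which moves one-carbon units from serine, changed by -1.77 ± 0.25 (adjusted p = 0.00178), and Cth, which makes cysteine, by -1.37 ± 0.26 (adjusted p = 0.00953). Sardh, the sarcosine dehydrogenase, changed by -0.89 ± 0.21 (adjusted p = 0.0243). Among the 1-week arrays, B and C minus A was -1.27 for Asl, -0.73 for Glud1 and -0.84 for Shmt1. For Cth, Nags and Sardh it was -0.62, -0.77 and 0.20. Set adjustment takes this split off the change. Asl, Glud1 and Shmt1 were called in all 7 fits, which leave out single arrays and do not separate week from array set. Cth lost its call without 6-week array A, at an adjusted p of 0.064, while Nags and Sardh kept theirs in only 2 fits, without 4-week array B or C for Nags and without 4-week array C or 6-week array C for Sardh.

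Of 27 tested genes of glycolysis and gluconeogenesis 3 fell and 19 (70.4%) were bounded, beside 80.3% over all genes. Gys2, the liver glycogen synthase, was detected on all 4-week arrays (6.02, 6.26, 6.06 and 7.03) and on no 6-week array, at least 2.16-fold lower (adjusted p = 0.00307). Pfkp, the platelet-type phosphofructokinase, was detected on 3 of 4 arrays at 4 weeks (5.54, 5.13, 5.32 and 5.08) and on none at 6 weeks, at least 1.03-fold lower (adjusted p = 0.0117). Under 75th-percentile scaling its change was 0.07. Pgam1 changed by -0.64 ± 0.17 (adjusted p = 0.0391) and lost its call whichever array was left out, and Pfkp lost it without 6-week array C (adjusted p = 0.0538). Of 35 sterol and fatty acid synthesis genes 1 was called and 28 (80%) were bounded. Mlxipl, the glucose-sensing factor ChREBP, rose by 1.5 ± 0.35 (adjusted p = 0.0255), from 8.67, 9.94, 9.41 and 9.75 to 11.32, 10.41 and 11.09. It kept its call only without 4-week array B or 6-week array B. Among 35 fatty acid oxidation genes Decr2, a peroxisomal reductase, was the 1 called, at -1.25 ± 0.26 (adjusted p = 0.0146), with a set-adjusted change of -0.13. It lost its call without 4-week array D or 6-week array A. Of the 35, 28 were bounded on the tested probe.

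Further probes of lipid genes read lower at 6 weeks where the tested probe did not. In fatty acid oxidation 10 of 18 further probes were called lower and 0 higher, and 7 genes bounded on the tested probe had such a probe. In sterol and fatty acid synthesis it was 4 of 9 and 0. Over all further probes 18% were called lower and 2.05% higher. The following were picked out after their values were seen. Acaa2, the thiolase of mitochondrial beta-oxidation, read 11.65, 11.91, 11.24 and 11.44 on the tested probe at 4 weeks and 11.21, 11.34 and 11.39 at 6 weeks. One further probe read 11.50, 11.36, 11.34 and 11.65 and then 8.16, 9.12 and 8.45, without overlap, a change of -2.89 ± 0.33 (adjusted p = 0.000246), and the other 2 gave -2.86 and -2.77. Among the 1-week arrays, B and C minus A was -1.55 to -1.44 for the 3 probes, and their set-adjusted changes ran from -1.45 to -1.30. Acadl, the long-chain acyl-CoA dehydrogenase, gave 0.27 on the tested and -2.40 ± 0.18 (adjusted p = 8.73e-06) on a further probe, and the medium-chain enzyme Acadm -0.13 and -2.13 ± 0.27 (adjusted p = 0.00036). Squalene epoxidase (Sqle), of cholesterol synthesis, gave 0.08 and -2.58 ± 0.37 (adjusted p = 0.00075). The sterol dehydrogenase Nsdhl gave 0.17 and, on 3 further probes, -2.07 to -1.72 (adjusted p up to 0.00184). Set-adjusted changes of these further probes of Acadl, Acadm and Sqle were -2.21, -1.54 and -1.47. Which probe measures the transcript better was not tested.

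In bile acid synthesis and transport 1 of 28 fell. Abcb11, the canalicular bile salt export pump, read 10.78, 11.03 and 10.64 in naive liver, 9.13, 9.51, 9.29 and 9.84 at 4 weeks and 8.42, 8.28 and 8.34 at 6 weeks. Its last step was -1.10 ± 0.23 (adjusted p = 0.0136), and it lost its call without 4-week array D or 6-week arrays A or C (adjusted p up to 0.055).

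Of 29 tested pericentral hepatocyte genes, expressed where thioacetamide is activated, 0 were called between 4 and 6 weeks. Their median stood at -0.86 relative to naive at 4 weeks and -1.26 at 6 weeks, the median change between them was -0.12 (-0.05 with undetected genes at their bound), and 17 were bounded. Glutamine synthetase (Glul), the classic marker of the innermost layer, was undetected on all 7 arrays (4.94, 4.49, 4.42 and 4.38 at 4 weeks, 4.28, 4.57 and 4.56 at 6 weeks), against 6.13, 6.54 and 6.35 in naive liver. The glutamate transporter Slc1a2 was likewise undetected on all 7, and Oat, the ornithine aminotransferase of the same layer, was -4.43 and -3.99 relative to naive. The uptake carrier Slco1b2 missed the threshold, at -1.24 ± 0.37 (adjusted p = 0.0635). Of 24 tested periportal genes 2 fell, Asl and Nags, and 14 were bounded.

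The 6 hepatocyte markers had a mean level of 11.77 to 12.02 on the 4-week arrays and 11.96 to 12.27 on the 6-week arrays, and 0 of them were called. The Alb probe itself read only 5.25, 5.69, 5.78 and 6.01 and 6.08, 6.04 and 6.08. The identity factor Hnf4a was bounded from -0.12 to 0.91. Among 33 genes of secreted proteins and hepatocyte identity 1 rose, 1 fell and 23 were bounded. Cebpa, a factor that maintains metabolic gene expression, read 6.34, 6.63, 6.44 and 6.78 and 5.87, 5.6 and 5.42 and changed by -0.92 ± 0.23 (adjusted p = 0.0355). Onecut2, a liver and bile duct factor, rose by 1.07 ± 0.29 (adjusted p = 0.047), but its set-adjusted change was -0.17. Cebpa was called only without 4-week array A and Onecut2 only without 6-week array B. Of 27 acute phase proteins 0 were called on the tested probe, and Saa1 changed by 0.10 ± 0.70 (adjusted p = 0.957). Haptoglobin (Hp), which binds free haemoglobin, changed by -0.04 on its tested probe but by -1.74 ± 0.29 and -1.67 ± 0.25 on 2 further probes (adjusted p = 0.00166 and 0.00099), both bright at mean levels of 12.58 and 12.78. Of 42 complement and coagulation genes 4 fell and 27 were bounded. Serpind1, the thrombin inhibitor heparin cofactor II, read 10.03, 10.36, 10.30 and 10.85 and 9.26, 9.04 and 8.36, a change of -1.50 ± 0.26 (adjusted p = 0.0048) called in all 7 fits. C1qc, F7 and C1s1, the last detected on 1 of 3 arrays at 6 weeks, changed by -0.95, -0.80 and -1.21 with calls kept in 1, 2 and 0 fits, those of C1qc without 6-week array B and of F7 without 4-week array A or C. Pltp, the phospholipid transfer protein, was the 1 called among 23 apolipoprotein and lipid transport genes, at -0.85 ± 0.15 (adjusted p = 0.00585) in all 7 fits.

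Genes that differ between the sexes in mouse liver under the pattern of growth hormone gave 2 rises and 3 falls among 26 tested. The falls were Cyp2b13, Cyp2b9 and A1bg, all more abundant in female mouse liver, and the rises Cyp2d9 and Hsd3b2. A1bg read 9.83, 9.11, 7.16 and 9.51 at 4 weeks and 6.97, 5.96 and 5.90 at 6 weeks, a change of -2.63 ± 0.56 (adjusted p = 0.0158) that was lost without 4-week array D or 6-week array C (adjusted p up to 0.0735). Array C was the lowest 4-week array and lay close to 6-week array A. Hsd3b2, a steroid dehydrogenase, read 9.63, 10.64, 10.08 and 9.79 and 12.01, 11.58 and 12.09 and rose by 1.86 ± 0.35 (adjusted p = 0.00754). Its further probes gave -0.72 ± 0.30 and 0.40 ± 0.32, and its set-adjusted change was 0.41. Cux2, a factor of female liver, stood at -2.38 relative to naive at 4 weeks and at -2.45 at 6 weeks, detected on 2 of 4 and 1 of 3 arrays. Igfbp3, a carrier of insulin-like growth factors, was detected on all 4-week and no 6-week arrays and was at least 1.41-fold lower (adjusted p = 0.0101), the 1 call among 15 IGF axis genes. Its set-adjusted change was -0.21.

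Among 21 tested p53 targets 2 rose, 1 fell and 12 were bounded, beside 2.22%, 3.09% and 80.3% of all genes. Mdm2, the ligase that p53 induces to limit itself, read 9.05, 8.60 and 8.90 in naive liver, 10.25, 10.23, 10.51 and 10.11 at 4 weeks and 11.53, 11.07 and 11.19 at 6 weeks. It rose by 0.99 ± 0.20 (adjusted p = 0.0138), its further probe gave 0.83 ± 0.20, and the call was lost without 4-week array D or 6-week array A (adjusted p up to 0.0849). Plk2, a stress-induced kinase, rose by 0.70 ± 0.18 (adjusted p = 0.0396) and kept its call only without 4-week array A or 6-week array B. By contrast the cell cycle inhibitor Cdkn1a, 3.55 above naive at 4 weeks, was 3.30 above it at 6 weeks, and Phlda3 3.86 and 3.69 with an interval from -0.66 to 0.30. Sesn2, a p53 and stress target detected on 3 of 4 arrays at 4 weeks and on none at 6 weeks, was called lower (adjusted p = 0.0292), too near background for a fold. Under 75th-percentile scaling its change was 0.26. It kept its call only without 6-week array B.

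Among 29 genes of DNA replication 2 fell and 19 were bounded. The single-strand binding protein Rpa2 read 6.53, 6.03, 6.70 and 6.39 and 5.44, 5.28 and 4.39, detected on 2 of 3 arrays at 6 weeks, a change of -1.38 ± 0.24 (adjusted p = 0.0048) that held in all 7 fits. Thymidylate synthase (Tyms) read 8.11, 7.65, 8.09 and 7.93 and 6.47, 7.45 and 6.84, a change of -1.02 ± 0.26 (adjusted p = 0.0381), with -0.75 ± 0.30 on its further probe. Tyms kept its call only without 6-week array B. Of 22 mitosis genes 1 was called and only 6 were bounded, 15 being neither called nor bounded. Cdk1, the mitotic kinase, was 2.61 and 2.18 above naive, with a change of -0.43 ± 0.47 (adjusted p = 0.629), and Top2a changed by -0.65 ± 0.43 (adjusted p = 0.402). Cdca8, a chromosome passenger protein, was detected on 2 of 4 arrays at 4 weeks and on none at 6 weeks, too near background for a fold (adjusted p = 0.0429). Its call was kept only without 4-week array B, and under 75th-percentile scaling the change was 0.17.

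Of 31 unfolded protein and integrated stress genes 3 fell and 20 were bounded. Calreticulin (Calr), a chaperone of the endoplasmic reticulum, read 6.86, 6.98, 6.91 and 7.08 at 4 weeks and 5.34, 5.45 and 5.02 at 6 weeks, where 2 of 3 arrays detected it, a change of -1.69 ± 0.23 (adjusted p = 0.00157) with a set-adjusted value of -1.77, and was called in all 7 fits. Atf4, the central factor of the integrated stress response, read 8.72, 8.82, 8.83 and 8.77 and 7.74, 8.12 and 7.69 and changed by -0.93 ± 0.18 (adjusted p = 0.0105). It lost its call without 6-week array A or C (adjusted p up to 0.0605). Intervals stayed within 1 log2 unit for 28 of 30 proteasome genes, 37 of 39 cytosolic ribosomal protein genes, 63 of 68 genes of the respiratory chain and ATP synthase and 30 of 33 lysosomal genes. The share was 80.3% over all genes, and 86.8% and 91.8% in the ninth and highest deciles of mean level. Of the further probes of the 4 lists, in the same order, 3 of 9, 0 of 7, 3 of 16 and 3 of 12 were called lower and 0 higher. The share called lower was 18% over all further probes. Tested probes called outside these bounds include those of Rpl23, Atp5pb and Ctsa. Rpl23 rose by 1.41 ± 0.22 (adjusted p = 0.00238) on a probe whose further probes gave -0.38 ± 0.18 and 0.26 ± 0.15. Atp5pb, an ATP synthase subunit, changed by -1.42 ± 0.25 (adjusted p = 0.00585) with a set-adjusted value of -0.19. Ctsa, a lysosomal protease detected on 1 of 3 arrays at 6 weeks, changed by -1.50 ± 0.22 (adjusted p = 0.00178). Proteasome subunit Psmb7 was also called, at -0.82 ± 0.18 (adjusted p = 0.022), and lost its call without 4-week array B or C or 6-week array A or C. Actin (Actb), often used as a reference gene, was called higher at 0.63 ± 0.16 (adjusted p = 0.0355), kept its call only without 4-week array A or 6-week array B, and its 4 further probes ran from -1.73 to 2.01.

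The largest rises were led by the genes that divide the array sets. Erich5 read 7.27, 7.99, 7.15 and 7.25 at 4 weeks and 11.07, 10.90 and 11.56 at 6 weeks, a change of 3.76 ± 0.53 (adjusted p = 0.00178). At 1 week it read 8.06 on array A but 11.25 and 10.86 on arrays B and C. Zxda, Gm7609, Rhbdl2, Ifngr2 and Prf1 were divided the same way and changed by 3.49, 3.15, 2.80, 2.78 and 2.61 (adjusted p from 0.00121 to 0.00157). Pisd-ps2, a pseudogene detected on no 4-week array, was at least 9-fold higher at 6 weeks (adjusted p = 0.00707). The 7 genes had a median change of 3.15 and a median set-adjusted change of 1.01. Ifngr2 encodes an interferon-gamma receptor chain and Prf1 perforin, the pore protein of cytotoxic lymphocytes, and another Ifngr2 probe gave -0.47 ± 0.23. For these 7 genes, as for all others, week and array set cannot be told apart except by the set-adjusted value.

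Of the other 5 largest rises, Gldn, Lcn8, Ly96 and Xist differed between 1-week arrays B and C and array A by -0.13, -0.04, 0.11 and 0.36, and Hsd3b2 by 1.45, against 2.99 for Erich5. Gldn, a membrane protein of the nodes of Ranvier in nerve, read 4.53, 4.29 and 4.43 in naive liver, 6.88, 4.86, 5.52 and 5.56 at 4 weeks and 7.08, 8.12 and 7.96 at 6 weeks. It rose by 2.02 ± 0.40 (adjusted p = 0.0106), from 1.29 to 3.31 above naive, and at 1 week arrays A, B and C read 5.29, 5.77 and 4.55. Lcn8, a lipocalin, read 6.75, 5.96, 5.01 and 5.63 and 7.0, 8.10 and 8.22 and rose by 1.94 ± 0.35 (adjusted p = 0.00707), with 1-week values of 5.17, 5.14 and 5.12. Ly96, the MD-2 partner of the endotoxin receptor TLR4, read 7.94, 7.57, 7.59 and 7.63 and 8.50, 9.27 and 10.16, a change of 1.63 ± 0.31 (adjusted p = 0.00894). Xist, the RNA that coats the inactive X chromosome in females, read 6.83, 8.20, 6.71 and 6.65 and 8.42, 8.27 and 9.32, a change of 1.57 ± 0.37 (adjusted p = 0.0257), and 1.60 ± 0.33 on its further probe. The fifth was Hsd3b2, described above. Gldn lost its call without 6-week array C (adjusted p = 0.0538), and Xist kept it only without 4-week array B or 6-week array B. Vegfa, the endothelial growth factor, ranked next and was singled out after its values were seen. It read 8.51, 8.42, 8.21 and 8.75 at 4 weeks and 10.27, 9.73 and 10.12 at 6 weeks, and rose by 1.57 ± 0.23 (adjusted p = 0.00178).

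**Figure D4:**
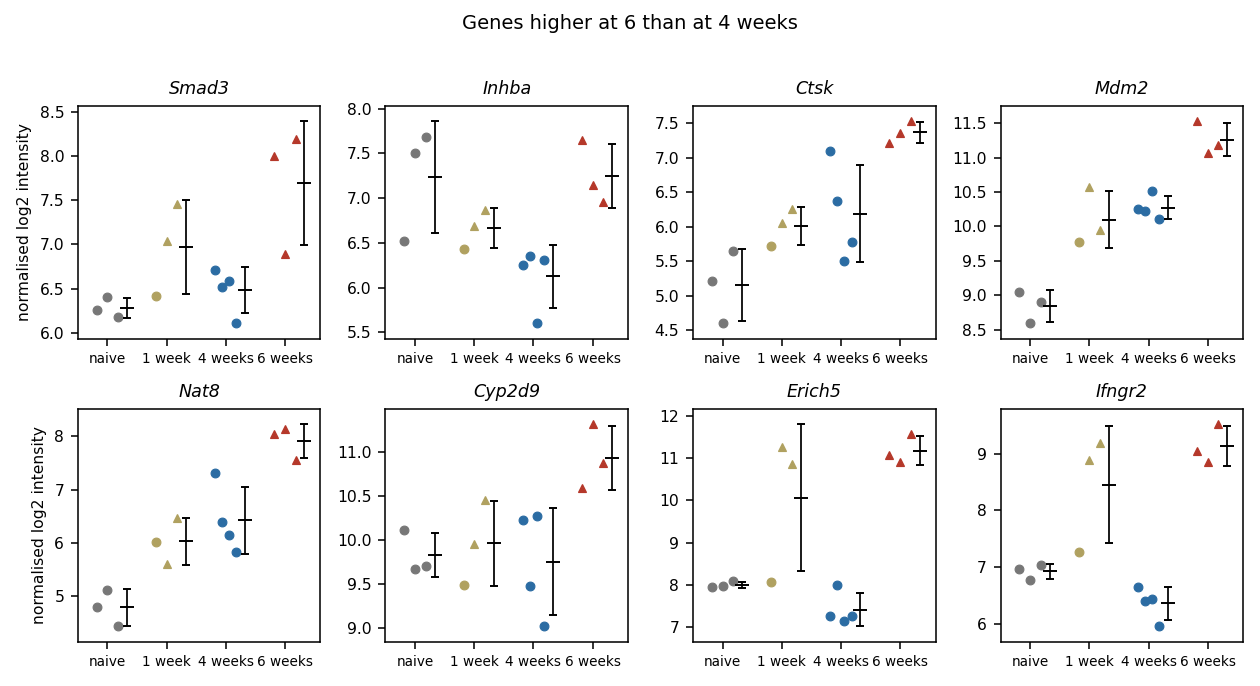
Normalised log2 intensity on each of the 13 arrays for 8 genes higher at 6 than at 4 weeks of TAA. Circles and triangles are the first and second array set, and black bars give the mean and SD. For Erich5 and Ifngr2 the triangles of 1 week stand with the 6-week arrays, while the means of Mdm2 and Nat8 increase at each time point.

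Of the 12 largest falls, Cyp2b13, Cyp2b10, A1bg, Asl, Ces1b, Ugt1a2 and Glud1 are given above. Gnas, the stimulatory G protein subunit, read 8.18, 8.24, 8.01 and 8.58 at 4 weeks and 5.61, 6.12 and 4.93 at 6 weeks, where 2 of 3 arrays detected it, a change of -2.70 ± 0.31 (adjusted p = 0.00121), with -1.65 ± 0.28 on its further probe. Carbonic anhydrase 3 (Car3), abundant in liver, muscle and fat, read 10.06, 10.11, 9.79 and 10.98 and 7.40, 7.82 and 7.67 and changed by -2.61 ± 0.38 (adjusted p = 0.00178). The fat and muscle markers Adipoq, Plin1, Acta1 and Ckm were all below the detection filter. Hacl1, a peroxisomal lyase of branched fatty acids, changed by -2.42 ± 0.41 (adjusted p = 0.00426), and Adh5, which clears formaldehyde, by -2.30 ± 0.34 (adjusted p = 0.00178). Acad8, of valine breakdown, was detected on no 6-week array and was at least 3-fold lower (adjusted p = 0.00178). For these 5 genes the calls held in all 7 fits. That every 6-week array lay below every 4-week array was part of the rule that chose them. In 1-week liver, arrays B and C read 8.86 and 8.01 for Car3 against 10.10 on array A, and 9.36 and 8.79 for Adh5 against 10.60.

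**Figure D5:**
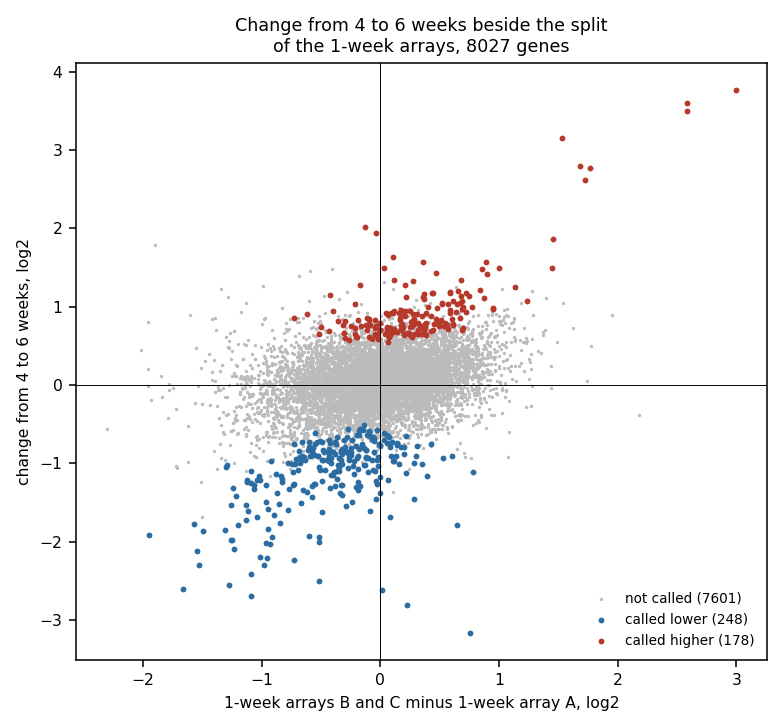
Change from 4 to 6 weeks of TAA (vertical, log2) against 1-week arrays B and C minus 1-week array A (horizontal, log2) for the 8027 genes tested. Red and blue dots are the 178 and 248 genes called higher and lower. Most blue dots lie to the left of 0, and the 7 genes of the array sets stand at the upper right.

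The split among the 1-week arrays ran in the same direction as the change from 4 to 6 weeks more often among called genes. Arrays B and C minus array A had the sign of the 6 to 4 week change for 59.4% of all genes, 75.8% of the rises and 85.1% of the falls. The median of that split was 0.27 for the rises and -0.38 for the falls, against changes of 0.83 and -1.0. Across genes, which share the same arrays, the 2 quantities correlated with r = 0.336 (Spearman 0.293, 8027 genes). For Cyp2b13, Cyp2b10 and A1bg, picked out after their values were seen, the split was 0.76, 0.23 and 0.01, with a sign opposite to their fall, and for Nqo1 it was -0.19. Array C of 1 week was also the dimmest of the 13, at a mean intensity of 177. How much of each call belongs to the array set was not tested beyond the set-adjusted values. Where called genes had further probes past the filter, 48 of 62 such probes of the rises and 87 of 105 of the falls had the sign of the tested probe. At an unadjusted limma p under 0.05, 29 of the 62 shared the sign and 8 had the opposite one. Among the 105 these counts were 68 and 3. All further probes together leaned lower, with a median change of -0.14.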

How the data were processed

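RNA of 13 total liver samples was measured on Illumina bead arrays. The deposited raw table holds, per the file headers, a linear intensity and a detection p-value per probe and array, exported with GenomeStudio per the submitters' processing notes (no version is given in the sources used). The authors' deposited value table holds log2 values centred near 0 and served as an alternative. Of 25697 probes, 23978 had a gene symbol and 1719 did not.

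Intensities were background-corrected and quantile-normalised with neqc (limma 3.58.1, R 4.3.3, offset 16). Probes with detection p under 0.01 on at least 3 of 13 arrays were kept, with the highest-mean probe for each gene. A limma model of the 4 group means over all 13 arrays gave 95% intervals and two-sided p-values, adjusted by Benjamini-Hochberg over 8027 genes with a threshold of 0.05, and was tested on simulated data. An interval within 1 log2 unit bounds a change and does not show equality. A gene detected on no array of a group was given a lower bound in place of a fold. The number of arrays limits the precision.

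Named genes were the 12 largest called rises and falls without overlap, up to 3 called members and the highest uncalled member of each list, and sentinels of fibrosis and injury. Further list members were named for their role after their values were seen. The comparison, members and lists were chosen with earlier results of these data known. Replicate numbers in the value table did not pair samples: deviations of same-numbered samples correlated at -0.321, -0.224 and -0.0407. Promoter sequences are from RefSeq, GRCm38.p6. Alternatives covered background correction, normalisation, filters, probe choice, samples in the fit, array set, array weights, the value table and leaving out each array.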

Additional observations from a re-analysis of the deposited data

Results flagged for a closer look

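Among 65 genes examined for a 4-week array far from the other 3, 4 passed Dixon's 95% critical value for the gap divided by the range, and chance flags about 1 in 20 groups. Array B was the high one for Erich5 (7.99 against 7.15 to 7.27, ratio 0.851), for Prf1 (7.32 against 6.52 to 6.61, ratio 0.885) and for Xist (8.20 against 6.65 to 6.83, ratio 0.886). Array A was the high one for Ly96 (7.94 against 7.57 to 7.63, ratio 0.836).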

How the results depend on the processing

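The count of called genes moved from 426 to 818 under 75th-percentile scaling (468 higher, 350 lower), to 762 with the 7 arrays alone (377 higher, 385 lower), to 868 with array weights (436 higher, 432 lower) and to 1075 when every named probe was tested on its own (317 higher, 758 lower). It was 174 with a 2-fold threshold. The mean of all probes of a gene gave 586 calls (204 higher, 382 lower). Other backgrounds, normalisations and filters gave 343 to 493 calls. With array set as a term limma called 0 genes (0 higher, 0 lower; 800 at an unadjusted p under 0.05) and bounded 2500 within 1 log2 unit. Without a filter 14877 of 16590 genes were bounded, and 2440 genes had an interval within 1.5-fold. Leaving out each array gave 106 to 497 calls, 26 to 230 higher and 80 to 267 lower, and bounded 5531 to 6128 genes. The authors' value table gave 451 calls, and 36 (9 higher, 27 lower) with the replicate block, a pairing by number only, over fewer samples. Signs turned for Sesn2, Cdca8 and Pfkp under 75th-percentile scaling (0.26, 0.17 and 0.068), for Cyp2a5 with the mean of its probes (-1.11) and for Onecut2 with array set as a term (-0.17); the cause was not tested. Of 76 named called genes all 76 were called with array weights, on the 7 arrays alone and at detection p under 0.05, and 0 with array set as a term. Of the falls, 33 were detected on no 6-week array and have only a bound.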

Other observations

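The following 9 called genes were picked out after their values were seen and stand for no group. Hnrnpk, Hnrnpf and Hnrnpa2b1, proteins that package pre-mRNA, changed by -1.66, -1.60 and -1.98 from 4 to 6 weeks (limma adjusted p = 0.00157, 0.00141 and 0.00199). The translation initiation subunits Eif3b and Eif3c changed by -1.46 and -1.86 (adjusted p = 0.0014 and 0.0158), and Nop56, which guides ribosomal RNA methylation, by -1.53 (adjusted p = 0.0128). The splicing genes Srrm2 and Prpf38b changed by 1.26 and 1.13 and Hnrnpdl, a relative of the packaging proteins, by 1.18 (adjusted p = 0.0268, 0.0101 and 0.02 in this order). Hnrnpk, Hnrnpf, Hnrnpa2b1 and Eif3b were called whichever array was left out. The calls of Eif3c and Hnrnpdl were lost without 4-week array D or 6-week array A or C, that of Prpf38b without 6-week array A or C and that of Nop56 without 6-week array A, while Srrm2 kept its call only without 4-week array B or 6-week array B. In the set-adjusted fit the change was -1.42 for Eif3b, -0.82 for Hnrnpf, -0.77 for Hnrnpk, -0.72 for Hnrnpa2b1, -0.55 for Eif3c, -0.40 for Nop56, 0.12 for Srrm2, 0.45 for Prpf38b and 0.59 for Hnrnpdl.

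Immediate early genes respond within minutes to stress and handling. Of 19 tested members 17 were above their 4-week level on the tested probe and 0 were called, beside 56.1% of all genes above 0. Their median change was 0.46, beside 0.05 over all genes. Further probes of 4 of these genes went the other way, with 2 of 5 called lower and 0 higher, beside 18% and 2.05% of all further probes. The median change of these 5 probes was -0.39, against 0.34 on the tested probes of the same genes. The Wilms tumour factor Wt1, a mesothelial and stellate cell gene, read 5.67, 5.45, 4.65 and 5.36 at 4 weeks and 6.70, 6.77 and 6.83 at 6 weeks, a change of 1.48 ± 0.31 (adjusted p = 0.0133) that lost its call without 6-week array A or C.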
